A study of Gallus gallus with 17 samples.

Results

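The 38 genes named for this description carry out DNA replication and cell division. They cover cyclins and mitotic kinases, the spindle checkpoint, the kinetochore and chromosome, spindle motors and cytokinesis, the replication fork, and the supply of deoxynucleotides. Each gene was taken by its symbol in the platform annotation, and the probe set with the highest mean over the 17 arrays stood for it. In this way 35 of the 38 genes were measured, out of 13008 genes with a symbol. AURKA, CCNB2 and MCM4 had no probe set under that symbol and were not analysed here. The 35 genes have 67 probe sets among them, of the 37693 chicken probe sets tested.

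RNA came from adipose tissue of male chickens at 3 weeks of age. The arrays are labelled as broiler (n = 6), Fayoumi of line M 5.1 (n = 5) and Leghorn of line GHs 13 (n = 6), and the study asked which pathways go with leanness, for which Fayoumi and Leghorn are its lean lines. No treatment, transgene or deletion is given in the labels, and the strain of the broilers is not given in the sources used here. Arrays of a line are labelled biological replicates, with no word on how birds or samples were taken, so a p-value covers the spread among these arrays and that spread may be in part technical.

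A cell copies its DNA once before it divides. Ribonucleotide reductase (RRM1 and RRM2), thymidylate synthase (TYMS) and thymidine kinase (TK1) make the deoxynucleotides, the MCM helicase and GINS open the double helix, and PCNA clamps the polymerases to the DNA while FEN1 trims the lagging strand. In mitosis, CDK1 with its cyclins and PLK1 start the process, and kinetochore proteins such as NUF2 tie chromosomes to the spindle. The checkpoint proteins BUB1, BUB1B and MAD2L1 hold back CDC20 until all chromosomes are attached. PRC1, RACGAP1, ANLN and the kinesins KIF20A and KIF23 complete cleavage. In adipose tissue such genes are expressed mainly by dividing precursor, blood vessel and immune cells, since mature adipocytes rarely divide. In whole tissue, fewer cells of a type and less RNA per cell cannot be told apart.

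The values are log2 expression, normalized by the authors, and their floor of 2.26 is shared by 37.2% of all deposited values. Background was set at 2.29, a level that 95% of the pooled single values of 80 blank or reporter probe sets did not exceed. Adipocyte markers were bright on every array, with FABP4 between 15.72 and 16.18 and PLIN1 between 12.65 and 14.57. On the first principal component, which held 52.9% of the variance, 5 arrays stood apart from the other 12. They are labelled broiler 2, broiler 3, broiler 4, Leghorn 3 and Leghorn 6. The array labelled broiler 1 sat at 1.03 on a scale where the broiler arrays define 0 and the Leghorn arrays 1, and the array labelled Leghorn 2 sat at 0.0841. Both went against their labels, so results are given with all arrays as labelled and again without these 2 arrays. Skeletal muscle markers were high on the array labelled Leghorn 1, where TNNC2 read 15.24, and on Fayoumi 2 and Fayoumi 3, where it read 9.78 and 8.58. On Leghorn 1 the adipocyte markers, 12 measured of 12, had a median deviation of -1.37 from their means, against -0.25 to 0.57 on the other 16 arrays. Of 6 muscle stem cell markers, MYOD1 read 12.60 on Leghorn 1, 4.36 on Fayoumi 2 and 2.94 on Fayoumi 3, and MYF5 and MYF6 read 2.64 and 2.68 on Leghorn 1, while PAX7, PAX3 and MYOG stayed at no more than 2.35 on all arrays.

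Most of the 35 genes were measured well above the floor. Their means over all arrays ran from 2.302 for ECT2 to 10.64 for PCNA with a median of 5.82, and 31 lay above background on all 17 arrays. A probe set's brightness also depends on its probes, so these means do not rank the genes by abundance. The spread between arrays of a line was like that of other genes. Its median SD was 0.483, against 0.445 over the 9786 genes above background on at least 5 arrays. From the lowest to the highest array the 35 genes covered 0.513 to 4.32 on the log2 scale, the latter for MKI67, a marker of cycling cells.

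**Figure D1:**
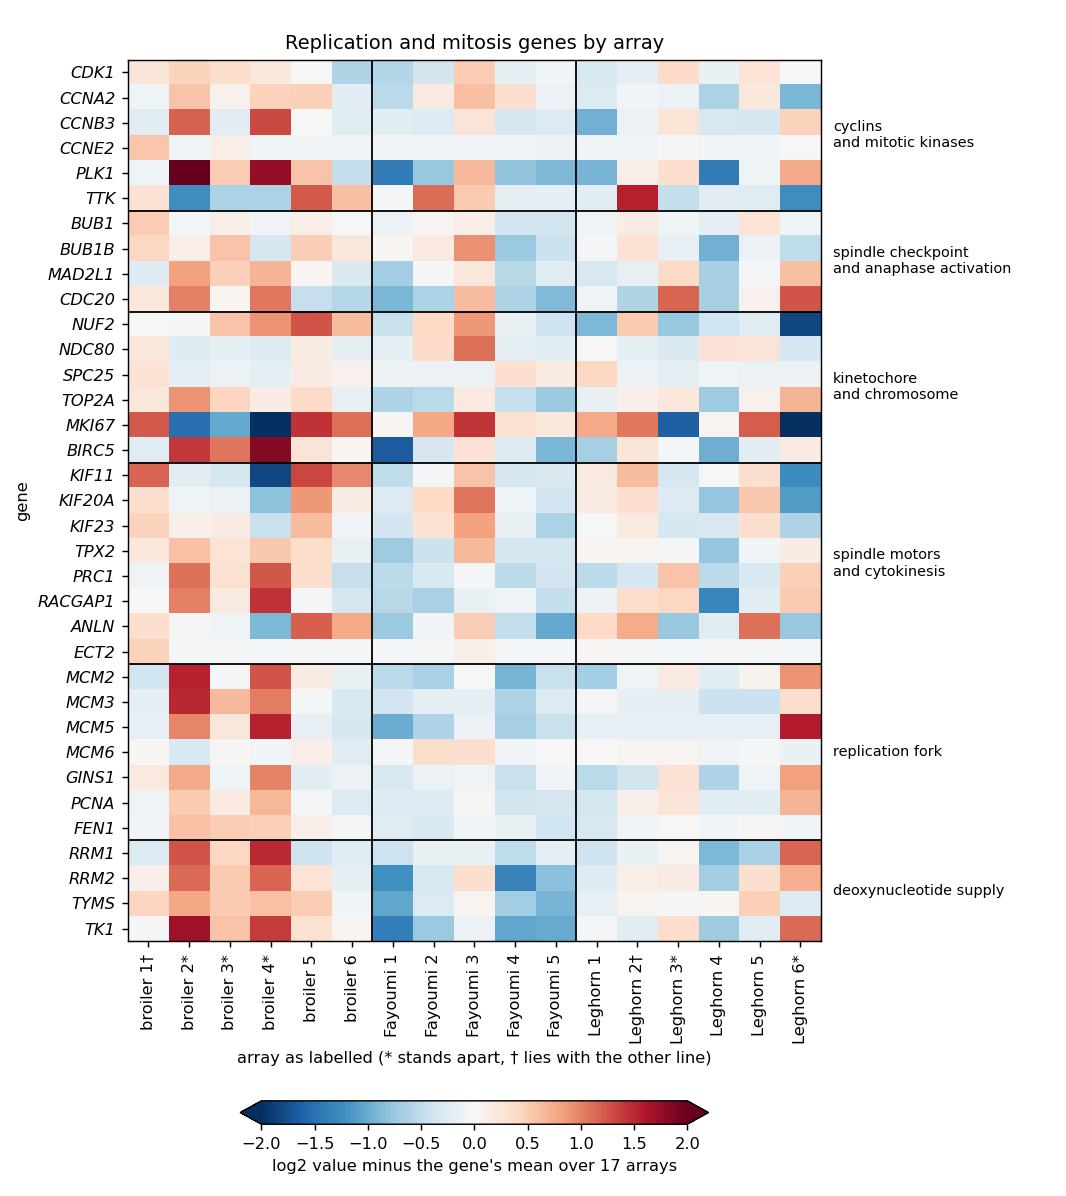
Deviation of each of 35 genes on each of 17 arrays from that gene's mean, as log2 units in colour (red above, blue below; the scale ends at 2.0 either way), with genes in rows by role and arrays in columns by labelled line. The replication fork and deoxynucleotide genes are red mainly on broiler 2, broiler 4 and Leghorn 6, while MKI67 and KIF11 are blue there; Fayoumi 1, 4 and 5 are blue in most rows.

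Among the 35 genes, the named genes of deoxynucleotide supply (4 of them) had the widest median gap between broiler and Fayoumi, at -1.11 on the log2 scale, with no test between roles. TYMS, which makes thymidylate for DNA, was 2.05-fold lower in Fayoumi than in broiler and was the 1 gene of 35 that passed the test. Its log2 difference was -1.04 (SE 0.20), with limma's adjusted p = 0.0261 over all probe sets. Among all 13008 genes, 0.961% passed in this comparison, so 1 of 35 is not far from the background. The Fayoumi mean was below the broiler mean for 29 of the 35 genes, with a median log2 difference of -0.49. Over the 9786 genes above background on at least 5 arrays the median was -0.04, and 54.8% of them were lower in Fayoumi. At an unadjusted p under 0.05, 12 of the 35 genes were lower in Fayoumi and none higher, or 34.3%, against 7.98% of all genes and 10.5% of those above background. The 35 genes had been named with results of these data known. Such shares, here and below, therefore describe the list and are not independent support.

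Leaving out the arrays labelled broiler 1 and Leghorn 2, the median difference was -0.56 and 2 genes passed, TYMS (-1.04, limma adjusted p = 0.0366) and FEN1 (-0.55, adjusted p = 0.0401), against 2.45% of all genes. Without broiler 1 alone, TK1 passed as well (-1.66, limma adjusted p = 0.0478), making 3 of the 35, beside 292 of all 13008 genes. Of the 5 arrays that stand apart, 3 are broilers and none is Fayoumi, and the sizes moved with them. Leaving them out keeps broiler 1, 5 and 6 and Leghorn 1, 2, 4 and 5. The arrays that go against their labels, broiler 1 and Leghorn 2, thus weigh more in that setting, here and below. Without the 5 arrays that stand apart no gene passed by limma. At an unadjusted p under 0.05, 6 of the 35 were lower in Fayoumi, beside 662 of all 13008 genes. TYMS stood at -0.87 with limma's adjusted p = 0.334, and at -0.80 (adjusted p = 0.441) without broiler 1 and Leghorn 2 as well. The median difference without the 5 was -0.30. There 31 of 35 genes were lower in Fayoumi, beside 5114 of the 13008. The TYMS call was also lost on leaving out any 1 of broiler 2, 3, 4 and 5 or Fayoumi 1, 4 and 5, with limma's adjusted p between 0.0577 and 0.0841.

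No gene of the 35 passed between Leghorn and broiler by limma, and in this comparison 0% of all genes passed with the arrays as labelled. The Leghorn mean was lower for 33 of the 35, beside 5181 of the 9786 genes above background. The median log2 difference was -0.29, beside -0.02 over the genes above background. Under an unadjusted p of 0.05, 6 of the 35 were lower and none higher, or 17.1% beside 4.55% of all genes. These were NUF2, FEN1, BIRC5, CCNA2, TYMS and MCM3, each with limma's adjusted p = 0.852. Without the arrays that stand apart their differences ran from -0.88 for NUF2 to -0.09 for MCM3. Leaving out broiler 1 and Leghorn 2 brought 2.29% of all genes past the threshold but none of the 35. NUF2 then came closest, at -1.49 with adjusted p = 0.0526. With the arrays as labelled the Leghorn and broiler arrays overlapped for each of the 35 genes, and 0.0231% of all genes were lower in Leghorn with no overlap.

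Between Fayoumi and Leghorn, 0 of the 35 genes passed by limma, beside 0.761% of all genes. The differences were smaller, with a median of -0.14 and 23 of the 35 genes lower in Fayoumi. Over the 9786 genes above background the median was -0.005, and 4989 of them were lower in Fayoumi. At an unadjusted p under 0.05, TYMS, TK1 and RRM2 were lower in Fayoumi, which is 8.57% of the 35 beside 4.87% of all genes. All 3 belong to deoxynucleotide supply. Their differences were -0.60, -0.91 and -0.74, and -0.68, -0.56 and -0.55 without the arrays that stand apart. Without the arrays labelled broiler 1 and Leghorn 2, none of the 35 passed either, beside 1.91% of all genes. All 35 overlapped between the arrays as labelled, where 1.51% of all genes were lower in Fayoumi with no overlap. The 3 comparisons share arrays, so their values are given side by side and were not counted as separate support.

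**Figure D2:**
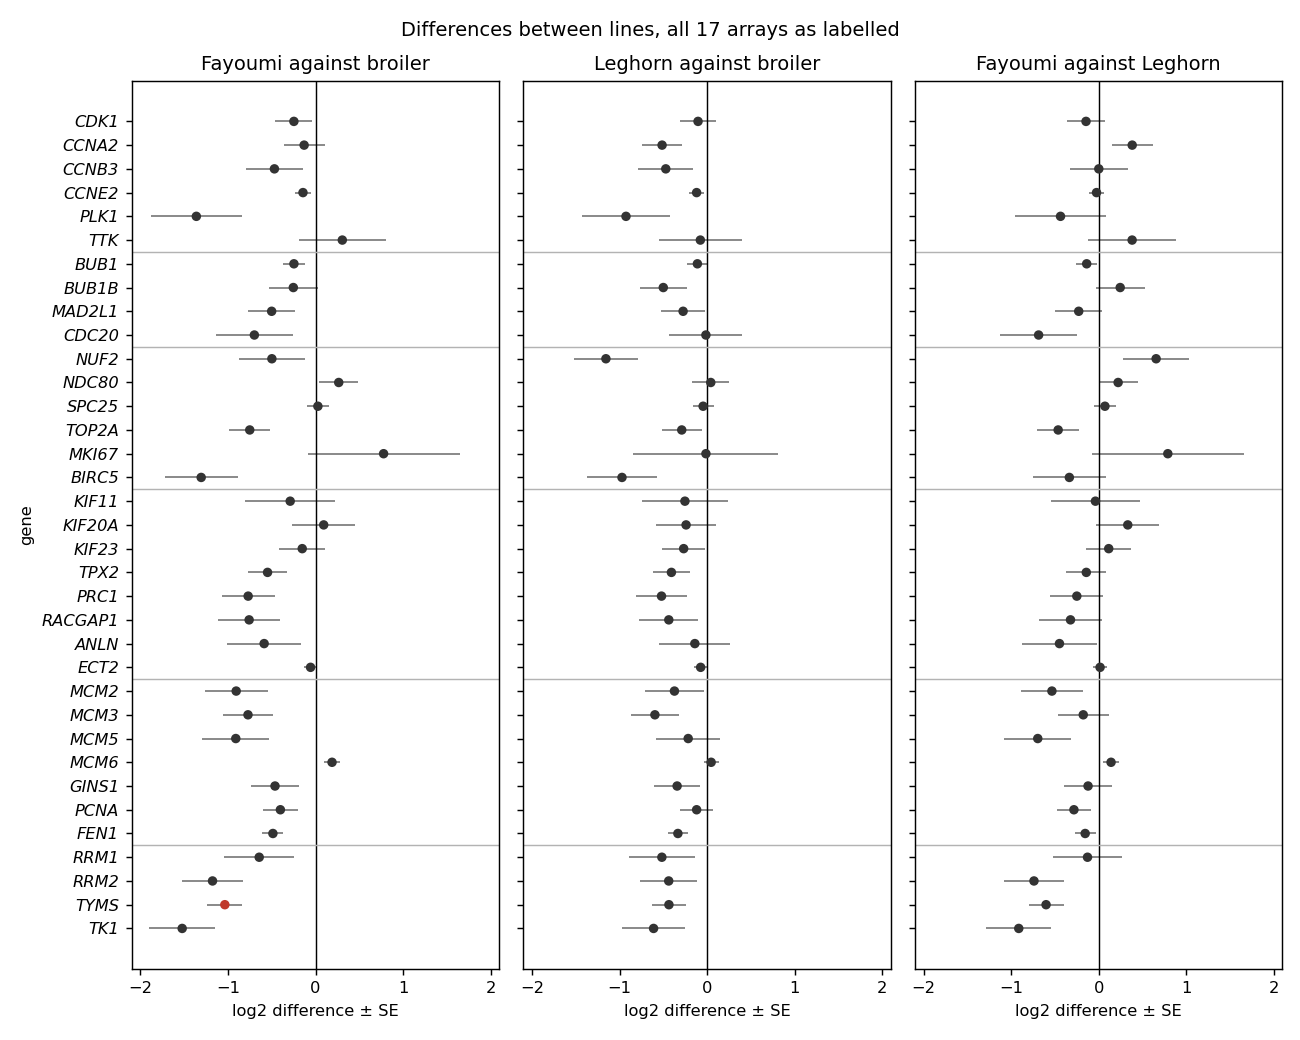
Log2 difference between lines for each of 35 genes (points) with limma's standard error (bars), in 3 panels, with all arrays as labelled; grey lines part the roles. The red point marks TYMS at -1.04 in Fayoumi against broiler, the one difference with adjusted p under 0.05; 29, 33 and 23 of the points lie left of 0 in the 3 panels.

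All 4 genes of deoxynucleotide supply had their lowest mean in Fayoumi and their highest in broiler. This order was not particular to them. It also held for every measured replication fork gene but MCM6, and for genes of other roles such as PLK1, MAD2L1, TOP2A and PRC1. Among others it did not hold for CCNA2, NUF2 and MKI67. TYMS read 4.95, 5.73, 6.06, 5.30 and 5.07 on the 5 Fayoumi arrays. The 6 broiler arrays ran from 5.94 through a median of 6.51 to 6.77, and the 6 Leghorn arrays from 5.74 through 6.01 to 6.48. The highest Fayoumi array thus overlapped the lowest broiler array, and the Leghorn arrays overlapped both other lines. The means ± SD were 5.42 ± 0.46 in Fayoumi (n = 5), 6.02 ± 0.25 in Leghorn (n = 6) and 6.46 ± 0.28 in broiler (n = 6). Leghorn stood 0.60 above Fayoumi (SE 0.20, limma adjusted p = 0.312) and 0.44 below broiler (SE 0.19, adjusted p = 0.852), neither past the threshold.

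TK1, which salvages thymidine in cells that copy their DNA, showed the widest gap between the line means. Fayoumi arrays read 4.75, 5.39, 6.01, 5.09 and 5.12, and broiler arrays ran from 6.09 through 6.57 to 7.82. It was the only gene of the 35 whose Fayoumi arrays all lay below all broiler arrays, which held for 2.31% of all genes. The difference of -1.52 (SE 0.37, 2.87-fold) had limma's adjusted p = 0.0899. The highest broiler arrays were broiler 2 and broiler 4, at 7.82 and 7.53, and without the 5 arrays that stand apart the difference was -0.97 (adjusted p = 0.231). Leghorn arrays ran from 5.43 through 6.002 to 7.27, overlapping both other lines.

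Ribonucleotide reductase has a large subunit, RRM1, and a small subunit, RRM2, which is made mainly in cells that replicate. RRM2 read 6.56, 7.49, 8.11, 6.45 and 6.95 in Fayoumi, and ran from 7.59 through 8.19 to 8.96 in broiler and from 7.10 through 7.93 to 8.51 in Leghorn. Fayoumi 3 lay among the broiler arrays, and the other 4 Fayoumi arrays lay below all 6. RRM2 differed by -1.18 between Fayoumi and broiler (SE 0.34, limma adjusted p = 0.182). RRM1 differed by -0.64 (SE 0.40, adjusted p = 0.594), and its highest values, 7.20 on broiler 4, 6.96 on broiler 2 and 6.87 on Leghorn 6, came from arrays that stand apart. Without them RRM1 turned to +0.04 and RRM2 stood at -0.73.

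**Figure D3:**
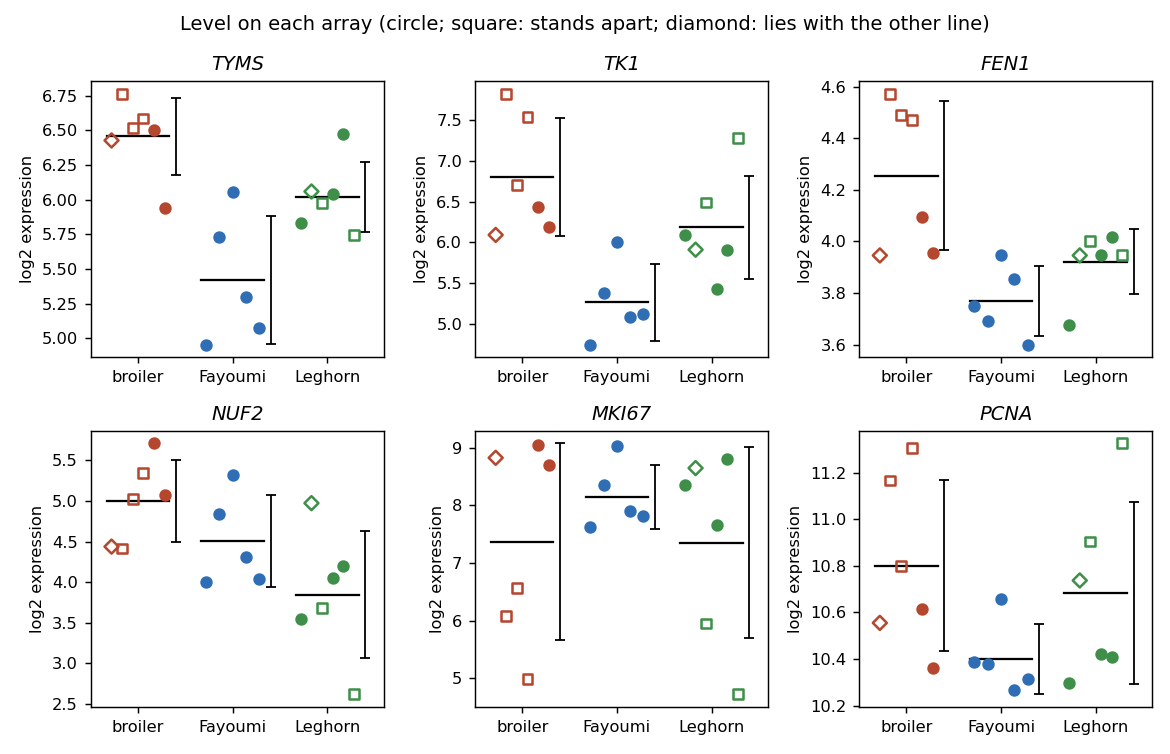
Log2 expression of TYMS, TK1, FEN1, NUF2, MKI67 and PCNA on each array, by labelled line; black lines are means and bars are 1 SD. Squares are the arrays that stand apart and diamonds the arrays labelled broiler 1 and Leghorn 2; the TK1 arrays of Fayoumi lie below those of broiler, NUF2 is lowest in Leghorn, and the squares are the lowest points of MKI67 and among the highest of PCNA.

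At the replication fork, 6 of the 7 measured genes had a lower mean in Fayoumi than in broiler, with a median difference of -0.49. FEN1, the flap endonuclease, read 3.75, 3.69, 3.95, 3.86 and 3.60 in Fayoumi. Broiler arrays ran from 3.95 through 4.28 to 4.57, and Leghorn arrays from 3.67 through 3.95 to 4.02. The highest values, 4.47 to 4.57, came from the 3 broiler arrays that stand apart, and 5 arrays of the 3 lines shared the value 3.95. The difference was -0.49 for Fayoumi (SE 0.12, limma adjusted p = 0.0925) and -0.33 for Leghorn (SE 0.11, adjusted p = 0.852) against broiler, and -0.23 and -0.10 without the arrays that stand apart. Values this near the floor and shared between arrays carry less resolution than their SE shows.

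PCNA, the brightest of the 35, read 10.38, 10.38, 10.66, 10.27 and 10.31 in Fayoumi, and ran from 10.36 through 10.71 to 11.31 in broiler and from 10.29 through 10.58 to 11.33 in Leghorn. The lines overlapped, and the difference between Fayoumi and broiler was -0.40 (SE 0.20, adjusted p = 0.513). Of the helicase subunits, MCM2, MCM3 and MCM5 were lower in Fayoumi than in broiler by 0.91, 0.77 and 0.91 on the log2 scale, with limma's adjusted p between 0.351 and 0.426. Without the arrays that stand apart these differences were -0.38, -0.15 and -0.34, and that of PCNA was -0.11. MCM6, a subunit of the same ring, went the other way, at +0.19 (SE 0.09, adjusted p = 0.506). MCM5 stood at the single value 5.56 on 7 arrays, 5 of them Leghorn. The GINS subunit GINS1 differed by -0.46 (SE 0.27, adjusted p = 0.574), and by -0.16 without those arrays.

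The cyclins and mitotic kinases gave no call. PLK1, a kinase that drives entry into mitosis, had the largest difference among them, at -1.36 in Fayoumi (SE 0.52, limma adjusted p = 0.368) and -0.93 in Leghorn (SE 0.50, adjusted p = 0.852) against broiler. It read 4.12, 4.75, 6.16, 4.73 and 4.61 in Fayoumi and from 5.04 through 6.05 to 7.59 in broiler, so that Fayoumi 3 lay inside the broiler range. The highest broiler values, 7.59 and 7.26, were those of broiler 2 and 4, and without the arrays that stand apart the differences were -0.64 and -0.57. CCNA2, the cyclin of S phase and G2, was lowest in Leghorn, with arrays from 5.29 through 6.02 to 6.42. It ran from 6.01 through 6.49 to 6.79 in broiler, and read 5.67, 6.40, 6.82, 6.54 and 6.09 in Fayoumi. The Leghorn difference from broiler was -0.51 (SE 0.22, adjusted p = 0.852), with overlapping arrays. CDK1, the kinase these cyclins switch on, differed by -0.25 (SE 0.21, adjusted p = 0.672) and -0.10 (SE 0.20, adjusted p = 1) in the same 2 comparisons. CCNB3 differed by -0.47 in both, and CCNE2, the cyclin of S phase entry, sat at 2.32 on 10 of its 17 arrays. TTK, a checkpoint kinase, had the opposite sign in Fayoumi, at +0.31 (SE 0.50, adjusted p = 0.937), and turned to -0.46 without the arrays that stand apart.

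Each of the 4 spindle checkpoint and anaphase genes had its lower mean in Fayoumi when set against broiler, with a median of -0.38. CDC20, which activates the anaphase-promoting complex, differed by -0.70 (SE 0.44, limma adjusted p = 0.599) and MAD2L1 by -0.50 (SE 0.27, adjusted p = 0.541). BUB1 and BUB1B differed by -0.25 each. CDC20 stood at -0.21 and MAD2L1 at -0.09 without the arrays that stand apart. In Leghorn the same genes differed from broiler by -0.50 for BUB1B, -0.27 for MAD2L1, -0.11 for BUB1 and -0.01 for CDC20, none past the threshold.

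Among the kinetochore and chromosome genes, NUF2 set Leghorn apart from broiler more than any other of the 35 by its unadjusted p of 0.00626. NUF2 is a subunit of the complex that binds microtubules at the kinetochore. Leghorn arrays ran from 2.62 through 3.87 to 4.97, broiler arrays from 4.41 through 5.05 to 5.71, and Fayoumi arrays read 3.999, 4.84, 5.32, 4.31 and 4.04. The highest Leghorn value came from the array labelled Leghorn 2, and without it and broiler 1 no Leghorn array reached any broiler array. In that setting FEN1 and TK1 were also lower in Fayoumi than in broiler with no overlap, and TTK was higher in Fayoumi than in Leghorn. The share of all genes with no overlap was not counted there. In Leghorn against broiler 2.29% of all genes then passed, against 0% as labelled. The NUF2 difference was -1.16 as labelled (SE 0.36, limma adjusted p = 0.852) and -1.49 without broiler 1 and Leghorn 2 (SE 0.35, adjusted p = 0.0526). A second, dimmer NUF2 probe set, above background on all 17 arrays, differed by -0.30 as labelled (limma adjusted p = 0.970). Its mean was lowest in Fayoumi, at 2.67, against 3.00 in Leghorn and 3.30 in broiler. NDC80, the partner of NUF2, differed by +0.04 and lay near the floor, and SPC25 of the same complex by -0.05.

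BIRC5, the survivin of the chromosomal passenger complex, read 4.05, 5.39, 6.002, 5.45 and 4.81 in Fayoumi. It ran from 5.48 through 6.38 to 7.55 in broiler and from 4.75 through 5.59 to 5.96 in Leghorn. Its differences from broiler were -1.31 in Fayoumi (SE 0.42, limma adjusted p = 0.239) and -0.97 in Leghorn (SE 0.40, adjusted p = 0.852), and the 3 broiler arrays that stand apart, at 6.79 to 7.55, lay above every other array. Without these arrays the differences were -0.60 and -0.42. TOP2A, the topoisomerase that untangles sister chromosomes, read 5.78, 5.85, 6.59, 5.93 and 5.67 in Fayoumi. Broiler ran from 6.22 through 6.70 to 7.30 and Leghorn from 5.68 through 6.48 to 7.06. Only Fayoumi 3 reached the broiler range, and the difference was -0.75 (SE 0.24, adjusted p = 0.232).

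MKI67 took the opposite sign from most of these genes. Fayoumi was above broiler by 0.78 (SE 0.87, limma adjusted p = 0.764), and the difference turned to -0.71 (adjusted p = 0.749) once the arrays that stand apart were left out. Fayoumi arrays read 7.63, 8.36, 9.02, 7.90 and 7.81. Broiler arrays split into 8.69 to 9.04 on broiler 1, 5 and 6 and 4.99 to 6.56 on the 3 that stand apart.

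Of the 8 genes of spindle motors and cytokinesis, 7 had a lower mean in Fayoumi and all 8 in Leghorn, with medians of -0.42 and -0.26. PRC1 and RACGAP1, which build the central spindle, differed by -0.77 (SE 0.30, limma adjusted p = 0.391) and -0.76 (SE 0.36, adjusted p = 0.493) between Fayoumi and broiler. TPX2, a spindle assembly factor, differed by -0.55 (SE 0.23, adjusted p = 0.421), and ANLN, which organises the contractile ring, by -0.59 (SE 0.43, adjusted p = 0.642). The kinesins KIF11, KIF20A and KIF23 differed by -0.29, +0.09 and -0.15. A further KIF11 probe set differed by +0.08, and the brightest further ANLN probe set by -0.002. Without the arrays that stand apart PRC1 stood at -0.30, RACGAP1 at -0.26, ANLN at -1.12 and KIF11 at -1.26, the latter with adjusted p = 0.0666, the smallest of the 35 there. ECT2, the activator of RhoA at cleavage, had the lowest mean and was above background on 3 arrays, at 2.77 on broiler 1, 2.41 on Fayoumi 3 and 2.33 on Leghorn 1, so that no fold is given for it.

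The 5 arrays that stand apart carried higher values of some of the 35 genes and lower values of others, in both lines that hold them. PCNA ran from 10.80 to 11.33 on these 5 and from 10.27 to 10.74 on the other 12. TK1, RRM1 and MAD2L1 were likewise above all 12 others, at 6.49 to 7.82 against 4.75 to 6.43 for TK1. MKI67 was below, at 4.72 to 6.56 against 7.63 to 9.04, and so was TTK. Within broiler and within Leghorn alike, 5 of the 35 genes lay wholly above on these arrays (those 4 and RACGAP1) and 4 wholly below (TTK, MKI67, KIF11 and ANLN). Among the 9786 genes above background these shares were 20.4% above and 16.9% below, against 14.3% and 11.4% of the 35, so the 35 genes are not singled out by this split. These arrays were set apart from all probe sets together, and no test was made between them and the rest.

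The roles deviated to different degrees on the arrays that stand apart, with no test made. The median deviation of the deoxynucleotide genes from their own means was 1.20 on broiler 2, 1.29 on broiler 4 and 0.93 on Leghorn 6, and that of the replication fork genes was 0.76, 0.99 and 0.69. On the same arrays the spindle motor and cytokinesis genes stood at 0.07, -0.24 and -0.33. The spindle checkpoint genes stood between 0.16 and 0.48 on the 5 arrays. Broiler 3 and Leghorn 3 showed smaller deviations, at 0.52 and 0.11 for deoxynucleotide supply. Macrophage markers, 10 measured of 12, had a median deviation of -0.02 to 1.30 on the 5 arrays and -0.87 to 0.10 on the other 12. Endothelial markers, 12 of 12, had one of -0.34 to -0.16 against -0.40 to 0.52. The 3′ to 5′ signal difference of the actin control probes was 1.49 to 1.92 on the 5 arrays and 1.91 to 2.70 on the 12. By line it was 1.55 to 2.35 in broiler, 1.98 to 2.70 in Fayoumi and 1.49 to 2.45 in Leghorn. The part of these markers and of RNA quality in the result was not tested.

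**Figure D4:**
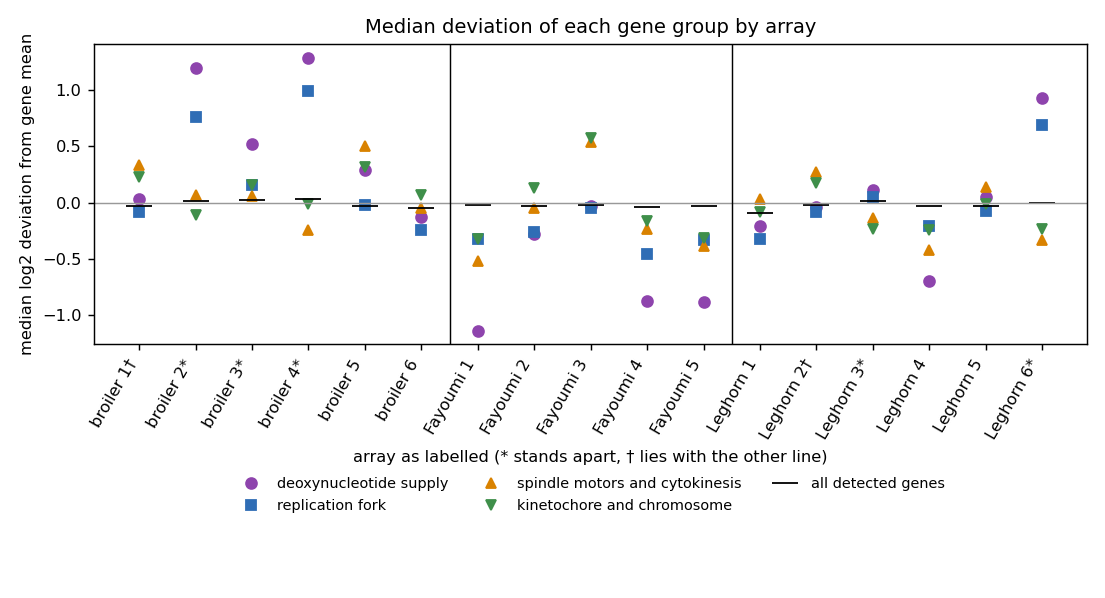
Median log2 deviation of 4 gene groups from each gene's own mean (coloured marks) on each array, by labelled line, with the median of all 9786 genes above background as a black dash. Deoxynucleotide supply is highest on broiler 4 at 1.29 and lowest on Fayoumi 1 at -1.14, while the dashes stay between -0.10 and 0.03.

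Within Fayoumi 1 array rose above the others over much of the list. Fayoumi 3 had the highest value of its line in 28 of the 35 genes and a median deviation of 0.26. Fayoumi 1, 4 and 5 stood at -0.45, -0.36 and -0.36, and Fayoumi 2 at -0.13. Skeletal muscle markers, 15 measured of 20, had a median deviation of 2.04 on Fayoumi 3 and 3.15 on Fayoumi 2, and of -0.79 to -0.45 on the other 3. On Leghorn 1, where these markers stood at 8.80, the 35 genes had a median of -0.15. Without Fayoumi 2 and 3 the median difference from broiler was -0.62, with 32 of 35 genes lower, beside 6666 of all 13008. TYMS was again the 1 gene of the 35 to pass, beside 40 of the 13008. The adipocyte markers had a median deviation of -0.05 to 0.24 on the 5 Fayoumi arrays.

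Several marker lists of other cell types that could bring dividing cells into the tissue had medians near 0 between Fayoumi and broiler. The median log2 difference was -0.08 for macrophage markers (10 measured), -0.0008 for T lymphocytes (11), 0.11 for endothelium (12), 0.08 for mesenchymal progenitors (11) and 0.15 for erythrocytes (8). Among the B lymphocyte markers, PAX5, POU2AF1 and CXCR5 were at or near the floor on all arrays, at no more than 2.39. The whole B lymphocyte list had a median deviation of -0.009 to -0.0004 on the broiler arrays and -0.004 to 0.01 on the Fayoumi arrays. Of these lists 1 of 10 macrophage and 1 of 12 endothelial markers passed the test, beside 0.961% of all genes. Single markers differed by -1.73 to 2.83, and their part in the result was not tested.

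More than 1 probe set was on the array for some of the 35 genes. In all, 32 further probe sets belong to 21 of them, and 15, of 12 genes, were above background on at least 5 arrays. None passed the test in any of the 3 comparisons. Their sign matched that of the chosen probe set for 12 of the 15 in Fayoumi against broiler, 11 in Leghorn against broiler and 10 in Fayoumi against Leghorn. The further TPX2 probe sets differed by -1.64 (limma adjusted p = 0.0546) and -0.47 between Fayoumi and broiler, against -0.55 for the brightest one. For KIF20A a second probe set stood at +0.61 where the chosen one stood at +0.09, and both further MCM6 probe sets above background were also above 0, at +0.51 and +0.18. The sign was the other way for KIF11, at +0.08 against -0.29 for the chosen one, and for NDC80, at -0.23 against +0.27. The brightest further ANLN probe set stood at -0.002 against -0.59.

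Other genes of the same processes were examined as 5 lists. Of 41 other origin and fork genes, 9 other deoxynucleotide genes and 63 other mitosis genes, none passed between Fayoumi and broiler by limma. At an unadjusted p under 0.05, 10, 2 and 17 differed in either direction, where 13.9% of all genes did. Of those, 6, 1 and 15 were lower in Fayoumi, where 7.98% of all genes were lower. The median differences of these lists, -0.07, -0.08 and -0.06, lay nearer to 0 than the -0.49 of the 35 genes, which had been named with results of these data known. The lists were not filtered for level and hold genes near the floor, such as CDC7 and POLA2, whose differences are compressed. Of the 35 genes, 34 were above background on at least 5 arrays, so the medians are not strictly alike. Of 22 regulators of G1 and S phase entry 1 passed, and of 16 cell cycle brakes none (3 at an unadjusted p under 0.05), with medians of -0.03 and -0.13.

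MYCN, a transcription factor that drives growth and proliferation, was lower in Fayoumi. Its arrays read 7.54, 7.95, 8.01, 7.99 and 7.81 there, and ran from 8.23 through 8.59 to 9.02 in broiler and from 8.25 through 8.33 to 8.86 in Leghorn. No Fayoumi array reached either other line. Of all genes, 2.31% lay lower in Fayoumi than in broiler with no overlap, and 1.51% lower than in Leghorn. The difference from broiler was -0.77 (SE 0.15, 1.70-fold, limma adjusted p = 0.0300) and that from Leghorn -0.57 (SE 0.15, adjusted p = 0.133). Without the arrays labelled broiler 1 and Leghorn 2 it stood at -0.79 against broiler (adjusted p = 0.0324), and the call was lost without the arrays that stand apart (adjusted p = 0.303).

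CCNG1, a cyclin induced by p53 and associated with growth arrest, was highest in Fayoumi, at 14.15, 14.06, 13.87, 14.19 and 13.86. Broiler arrays ran from 12.13 through 12.91 to 13.41, and Leghorn arrays from 12.10 through 13.14 to 13.42, so neither line overlapped Fayoumi. The share of all genes higher in Fayoumi with no overlap was not counted. The Fayoumi excess over broiler was 1.19 (SE 0.26, 2.27-fold) with limma's adjusted p = 0.0526, and 1.30 (adjusted p = 0.0271) without broiler 1 and Leghorn 2. The excess over Leghorn was 1.04 (SE 0.26, adjusted p = 0.106). Without the arrays that stand apart both passed, at 0.75 and 0.77 with adjusted p = 0.0180 and 0.00771. There 80 of all 13008 genes passed against broiler and 189 against Leghorn.

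Other genes of these lists passed only without the arrays labelled broiler 1 and Leghorn 2, where the background was 2.29% for Leghorn against broiler. GMNN, the inhibitor of origin licensing, was then lower in Leghorn than in broiler by 1.13 (SE 0.18, limma adjusted p = 0.00481). INCENP, which scaffolds the passenger complex that holds BIRC5, was lower by 1.32 in Leghorn (SE 0.18, adjusted p = 0.00179) and by 1.10 in Fayoumi (SE 0.18, adjusted p = 0.00632). CDKN2A, in mammals a source of proteins that hold cells out of the cycle, was lower in Leghorn by 4.09 (SE 0.58, adjusted p = 0.00253). As labelled, the same differences were -0.88, -0.95, -0.93 and -2.93, with adjusted p between 0.188 and 0.835. Without the arrays that stand apart the INCENP differences were -0.61 and -0.74 and that of CDKN2A was -1.82. That fit keeps broiler 1 and Leghorn 2, beside only broiler 5 and 6 and Leghorn 1, 4 and 5. The part of each kind of array in these smaller differences was not tested. The values of broiler 1, at 8.78 for GMNN, 7.63 for INCENP and 4.21 for CDKN2A, were the lowest of the broiler arrays, and those of Leghorn 2, at 9.13, 8.51 and 7.07, the highest of the Leghorn arrays. The genes were taken because they passed only once broiler 1 and Leghorn 2 were left out. Such positions therefore follow in part from the choice and are no separate evidence on the labels.

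In Fayoumi against broiler without the same 2 arrays, CENPO, a centromere protein, was lower by 0.88 (SE 0.19, limma adjusted p = 0.0340), and NSL1, a kinetochore protein of the MIS12 complex, was higher by 0.68 (SE 0.12, adjusted p = 0.00905). With the labels kept and the arrays that stand apart left out, these were -0.38 and +0.35. Against Leghorn, GMNN, the helicase subunit MCM8 and the clamp loader subunit RFC3 were higher in Fayoumi by 0.80, 0.66 and 0.55 (adjusted p = 0.0439, 0.0310 and 0.0334), with 1.91% of all genes passing. RFC3 lay between 2.45 and 3.38 on all arrays, near the floor.

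**Figure D5:**
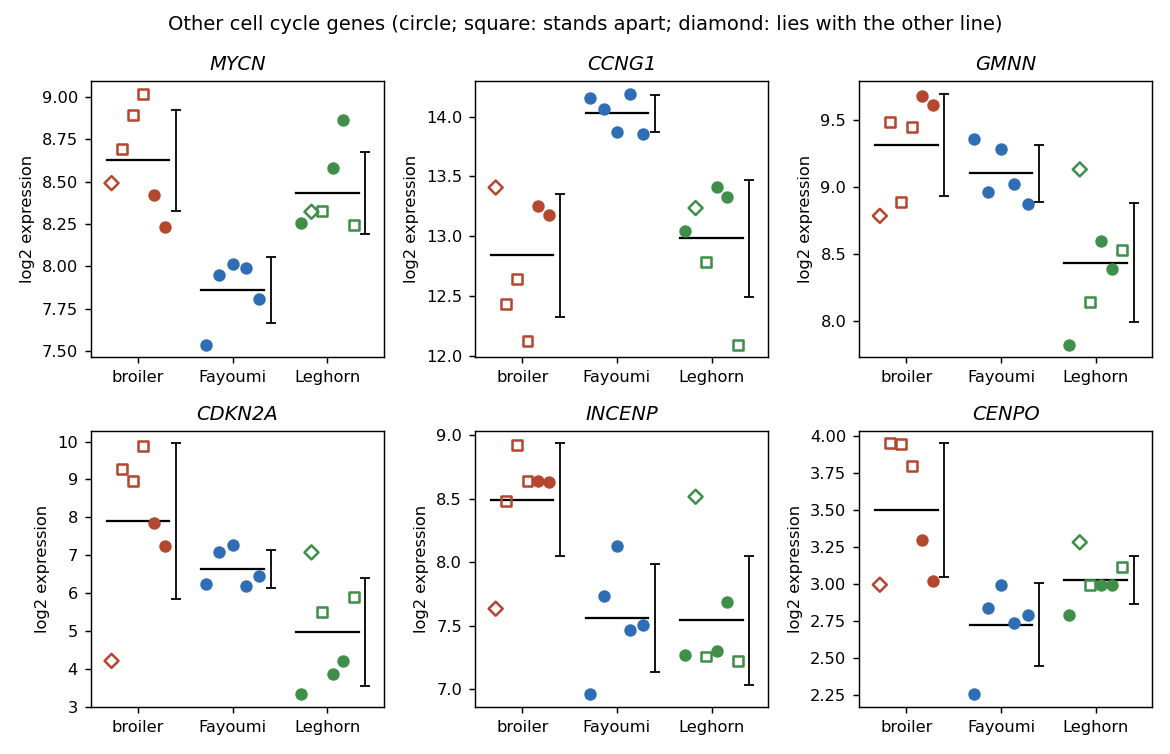
Log2 expression of MYCN, CCNG1, GMNN, CDKN2A, INCENP and CENPO on each array, by labelled line; lines are means and bars 1 SD, squares are arrays that stand apart and diamonds the arrays labelled broiler 1 and Leghorn 2. Fayoumi lies below both other lines for MYCN and above both for CCNG1, and the diamonds of GMNN, CDKN2A and INCENP lie at the far end of their labelled line. GMNN, CDKN2A and INCENP were taken because they passed only without the diamond arrays.

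The remaining genes with the smallest p of each list did not pass with the arrays as labelled. In Fayoumi against broiler they were POLE (-0.43), RFC2 (-0.52), DUT (-0.78), TK2 (+0.50), CENPM (-0.29), MYBL2 (-0.47) and CDKN2B (-1.70), with limma's adjusted p between 0.112 and 0.457. POLE, RFC2, DUT, MYBL2 and CDKN2B stood at -0.16, -0.22, -0.20, -0.01 and -0.25 without the arrays that stand apart. DUT, which keeps uracil out of DNA, read 9.82 to 10.25 on the 5 arrays that stand apart and 8.48 to 9.21 on the other 12. TK2, the mitochondrial thymidine kinase, was above broiler in Fayoumi, in contrast to the sign of the cytosolic TK1. CDKN2B read 4.63 to 6.22 on broiler 2, 3 and 4 and lay at 3.13 or lower on the other 14 arrays. In Leghorn against broiler POLE2 (-0.42), DTYMK (-0.34), DCTD (-0.41) and CCND2 (+0.25) had adjusted p = 0.852. In Fayoumi against Leghorn, DCK (+0.80), SKA3 (+0.34), WEE1 (-0.61) and BTG1 (-0.27) had adjusted p between 0.427 and 0.573, and CCND2 (-0.28) had 0.290.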

How the data were processed

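The deposited table holds 1 log2 value per probe set and array, normalized between arrays by the authors. The submitters' processing notes name R 2.13.2, RMA and GCRMA without saying which made the values, and the log2 scale was read from the values. The 38 genes and the gene lists were chosen with earlier results of these data known. limma 3.58.1 in R 4.3.3 (lmFit, contrasts.fit, eBayes) was fitted to all 17 arrays and 37693 chicken probe sets, with the line as the only factor and no filter on low values. Every p is two-sided, and adjustment is Benjamini-Hochberg over all probe sets, with a call at an adjusted p under 0.05. Differences are means of log2 values, first line minus second, and folds are 2 raised to that difference. A gene's probe set is the brightest with its annotated symbol. Genes given with single arrays are those called (also without broiler 1 and Leghorn 2), the 4 with the smallest p per comparison, and those with the highest and lowest mean; from each list, the 2 with the smallest p per comparison and any called. PLK1, MKI67, RRM1 and the DUT, CDKN2B and RFC3 ranges were added after their values were seen. The fit was tested on simulated data. The labels share replicate numbers across lines and do not say whether a number marks shared handling, so no pairing was used. Of 16 same-numbered pairs, 4 had a correlation of deviations over 0.1 (range -0.789 to 0.590). The lowest set an array that stands apart against one that does not, so these correlations cannot exclude a batch shared by number. No depth exists for arrays; their number limits the precision. In all, 30 alternatives were run.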

Additional observations from a re-analysis of the deposited data

Results flagged for a closer look

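In each line, the highest or lowest array of each of the 35 genes, and of their median deviation, was set against the others by the ratio of its gap to the whole range, with Dixon's 95% critical value. Of the 108 combinations with a line 16 stood out, all for single genes, where chance gives about 5% or 5.4. Fayoumi 3 was the high array for CCNB3 (6.003), CDC20 (6.96), TOP2A (6.59), TPX2 (7.02) and ECT2 (2.41). Broiler 1 was high for BUB1 (5.60), CCNE2 (2.92) and ECT2 (2.77), and Leghorn 2 for TTK (5.05). These last 2 arrays are the ones that go against their labels. Leghorn 1 was high for SPC25 (4.31) and ECT2 (2.33) and low for FEN1 (3.67), and Leghorn 4 was low for TPX2 (5.59). Leghorn 6 was high for MCM5, at 7.28 where the other 5 Leghorn arrays shared the value 5.56, and for CCNE2 (2.37), and Fayoumi 5 was low for CCNE2 (2.26). The CCNE2 and ECT2 values lie at or near the floor, where a gap of a few hundredths is enough to stand out.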

How the results depend on the processing

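With the arrays as labelled, 1 gene passed in Fayoumi against broiler. With array weights, where 644 of all 13008 genes passed, 2 of the 35 did (TYMS and TK1). The same 2 passed after leaving out dim probe sets, where 241 of 9786 genes did. Without the arrays labelled broiler 1 and Leghorn 2, where 319 of 13008 genes passed, the 35 also gave 2 (TYMS and FEN1). The count was 0 with only the 2 lines compared, without the arrays that stand apart, with the array state as a covariate and, in alternatives added after seeing the data, without both kinds of doubted array and with the state as a covariate without broiler 1 and Leghorn 2. Leaving out 1 array at a time gave 0 to 3 of the 35, beside 62 to 292 of all 13008 genes. The TYMS call was lost without broiler 2, 3, 4 or 5 (adjusted p = 0.0702, 0.0644, 0.0697 and 0.0577) and without Fayoumi 1, 4 or 5 (0.0780, 0.0841 and 0.0812), and its difference stayed between -1.04 and -0.80 in the alternatives that lost it. In Leghorn against broiler the count stayed 0 except in an added alternative, the state as a covariate without broiler 1 and Leghorn 2. There it was 1 (NUF2, -1.62, limma adjusted p = 0.0170), beside 629 of all 13008 genes. In Fayoumi against Leghorn the count among the 35 was 0 throughout. The medians over the 35 genes ran, leaving out 1 array at a time, from -0.58 to -0.39, from -0.39 to -0.23 and from -0.23 to -0.09 in the order of the comparisons above, and no difference of a called gene changed sign.

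With the replicate number as a block, 1, 0 and 0 genes passed and the medians were -0.49, -0.29 and -0.16. Of the 16 same-numbered pairs, 2 correlated best with their own number, and the labels give no more than the number. Over all 37693 probe sets, 269, 0 and 236 passed as labelled, 141, 0 and 139 with the block, 686, 661 and 544 without broiler 1 and Leghorn 2, 1319, 9 and 2042 with array weights, and 505, 0 and 426 of 21177 probe sets after leaving out dim ones. The floor compresses differences of CCNE2, ECT2 and NDC80.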
